A study of Mus musculus with 8 samples.

Results

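Cic, its ataxin partners and the co-repressors they recruit were followed here as 7 genes (Cic, Atxn1, Atxn1l, Rbm17, Hdac3, Ncor1 and Sin3a) out of 24421 gene rows, chosen by symbol from knowledge of the complex. All 7 passed the filter on low counts, which left 15438 genes for testing, and a gene is said to be called where its adjusted p was below 0.05. The measurements are RNA-seq counts from 8 mouse libraries on the C57BL/6 strain, made from RNA bound to tagged ribosomes (translating ribosome affinity purification, TRAP) of hypothalamus and medial amygdala. The 4 Control libraries came from mice with Otp-Cre and the ROSAfsTRAP allele, and the 4 KO libraries from mice that carried the same pair of alleles plus homozygous floxed Cic (Cicflox/flox). Otp-Cre limits both the deletion and the ribosome tag to cells with a history of Otp expression, the Control genotype lists no floxed Cic allele, and the sources used here do not state the age of the mice or whether a library was 1 animal. P-values therefore measure the spread between these samples, which may be technical.

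Cic encodes Capicua, an HMG-box protein that binds short octamers near its target genes and represses them until receptor tyrosine kinase and ERK signalling lifts the repression. Ataxin-1 (Atxn1), whose polyglutamine expansion causes spinocerebellar ataxia type 1, and its paralog ataxin-1-like (Atxn1l) bind Capicua and stabilise it as a protein. Rbm17 encodes a splicing factor that also binds ataxin-1. HDAC3 is the histone deacetylase that works on the scaffold NCoR1 (Ncor1), and SIN3A (Sin3a) is the scaffold of a separate deacetylase complex.

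The KO and Control libraries held 33223878 to 49587839 and 38171319 to 57300362 gene counts. The 6 lineage transcription factors used as a check on the labelled cells were all detected, with a summed level of 221 to 360 CPM (counts per megacount of library size, with sizes adjusted by TMM) across KO libraries and 213 to 289 CPM across Control libraries, although Otp itself was low (4.96 ± 2.54 and 3.45 ± 1.14 CPM, mean ± SD, n = 4). All 6 were on the positive side (median log2 fold change 0.47, against 0.02 over all tested genes). Of these, 2 passed at an unadjusted p of 0.05 (10.6% of all tested genes did) and 1 had no overlap between groups (5.93% did). By edgeR, DESeq2 or limma-voom 0 were called. KO libraries were more spread than Control libraries: for 71.5% of tested genes the SD of log2 CPM was larger in KO, with a median ratio of 1.45, and KO replicate 4 had the largest typical deviation from its group mean (0.22 on the log2 scale, against 0.17 to 0.19 in the other KO libraries and 0.11 to 0.15 in Control) and the largest share of records that did not align uniquely (81.9%, against 63.3% to 75.5% in the others). Oligodendrocyte markers were on the negative side in 10 of 10 cases (median log2 fold change -0.34). In the edgeR test 1 fell, as did 0.0648% of all tested genes. DESeq2 called 3, where it called 180 of 15578 genes over all, and limma-voom called 1. Of the 10, 5 passed at an unadjusted p of 0.05 and 4 had no overlap between groups. Their summed levels ranged over 1622.5 to 3006 CPM among KO libraries and 2557 to 3249.5 CPM among Control libraries. Of the astrocyte, microglia, endothelial and mural, and ependymal markers, 5 of 8, 9 of 10, 6 of 10 and 7 of 8 were negative, 0 were called, and none was at 0 in every library. A fit with glial and vascular markers as a covariate is given below for Cic and Sin3a, and it called 22 genes in all against 40 without it. Values without single libraries are given below where they bear on a member.

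In Control, the members spanned a wide range of levels per length, given as CPM per kilobase of annotated exon, the scale on which different genes can be compared. Rbm17 was highest at 35.7 ± 3.65 CPM per kilobase (n = 4), followed by Ncor1 at 21.1 ± 1.89 and Hdac3 at 16.8 ± 0.503. Next came Atxn1 at 12.1 ± 0.561 and Cic at 9.15 ± 1.42, with Sin3a at 5.66 ± 0.580 and Atxn1l at 4.98 ± 0.143 last. The Control ranges of neighbours in this order did not overlap, except those of Sin3a (4.9998 to 6.29) and Atxn1l (4.84 to 5.13). All 7 lay above the median of 3.63 CPM per kilobase over 14842 tested genes with a length, from the 56.9th percentile for Atxn1l to the 90.9th for Rbm17. In KO the order of the first 4 was the same, and Cic, at 4.28 ± 1.07 CPM per kilobase, moved to the last place below Sin3a (6.29 ± 1.40) and Atxn1l (4.91 ± 1.30), with ranges that overlapped (3.35 to 5.76 for Cic, 3.40 to 6.50 for Atxn1l). Exon lengths were those of GENCODE, and the sources used here do not name the annotation behind the counts.

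**Figure D1:**
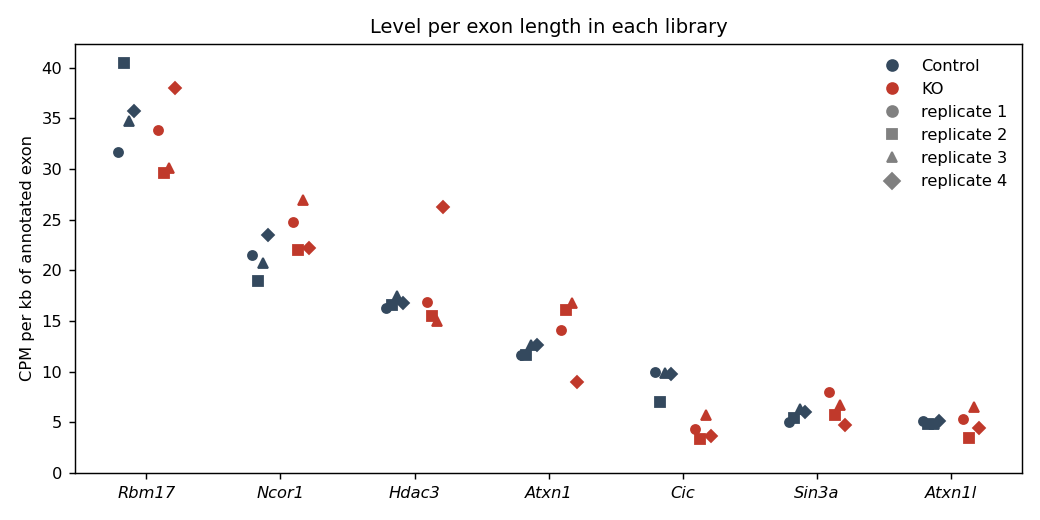
Level of each gene in each library as CPM per kilobase of annotated exon (vertical axis), with genes ordered by their Control mean, Control in dark blue, KO in red and 1 symbol per replicate number. Rbm17 is highest in both groups, Cic drops from 9.15 to 4.28 CPM per kilobase, and KO replicate 4 stands high for Hdac3 and low for Atxn1.

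Cic, the gene carrying the floxed allele, was the member that changed, and it serves as the check on the labels. Its level was 44.9, 34.5, 59.3 and 37.5 CPM in KO replicates 1 to 4, from 1218 to 2395 counts, and 103, 72.4, 101 and 100.5 CPM in Control replicates 1 to 4, from 3076 to 6004 counts. Every KO library was below every Control library. Control replicate 2 was low within its group, and KO replicate 3 was the KO library nearest to Control, at 62.9% of the Control mean against 36.6% in KO replicate 2. The means were 44.0 ± 11.04 and 94.2 ± 14.6 CPM (log2 fold change -1.10, SE of 0.21, adjusted p = 0.00220 by edgeR, exact two-sided permutation p = 0.0286, the smallest that 4 against 4 allows). The 95% interval from limma-voom put the KO level at 0.368 to 0.581 of Control. Of all tested genes 0.259% were called by edgeR, 0.0648% as lower in KO, and 2.91% were lower in KO with no overlap between groups. Cic (ENSMUSG00000005442.13) spans 25267704 to 25294159 of chromosome 7 (GRCm38, plus strand, 15 annotated transcripts) and shares no exon with another gene. Counts cover the whole gene and the sources used here do not state which part is floxed, so transcript outside the deleted part is counted too, and in TRAP samples fewer cells that carry Cic RNA and less Cic RNA per cell cannot be told apart. With the mean level of glial and vascular markers as a covariate the log2 fold change was -1.15 (edgeR adjusted p = 0.00426).

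The levels of known Capicua targets were set beside the remaining Cic signal, library by library. Of 17 tested targets known from other systems, 6 rose (Etv4, Etv5, Spry4, Spred3, Dusp4 and Maff) and 0 fell in the edgeR test (of all tested genes, 0.194% were called higher). Over the scaling and leave-out alternatives 5 to 8 were called, and Dusp4, which encodes an ERK phosphatase, was the 1 of the 6 that lost its call (adjusted p up to 0.129 by edgeR). The median log2 fold change of the 17 was 0.50, against 0.02 over all tested genes. KO replicate 3, with the most Cic, had the lowest Etv4 of the KO libraries (4.80 CPM, against 5.58 to 6.13) and the lowest Etv5 (64.7 CPM, against 73.0 to 88.7) but the highest Spry4 (72.8 CPM, against 66.0 to 69.5) and the highest Spred3 (119.7 CPM, against 70.4 to 107). Its Maff (6.09 CPM, against 5.64 to 11.7) and Dusp4 (10.4 CPM, against 7.30 to 12.9) lay within the range of the others. The mean log2 CPM of the 6 called targets was 4.81, 4.58, 4.56 and 4.37 in KO replicates 1 to 4, so that KO replicate 3 was neither highest nor lowest. Etv4 and Etv5 encode ETS transcription factors, and Spry4 and Spred3 encode inhibitors of ERK signalling. Among Control libraries, replicate 2, with the least Cic, had the highest Etv4 (1.69 CPM, against 0.804 to 1.43) and the highest Maff (3.25 CPM, against 1.69 to 1.72), but the lowest Spry4 (21.1 CPM, against 22.8 to 31.9). These are orders of 4 libraries and carry no test.

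**Figure D2:**
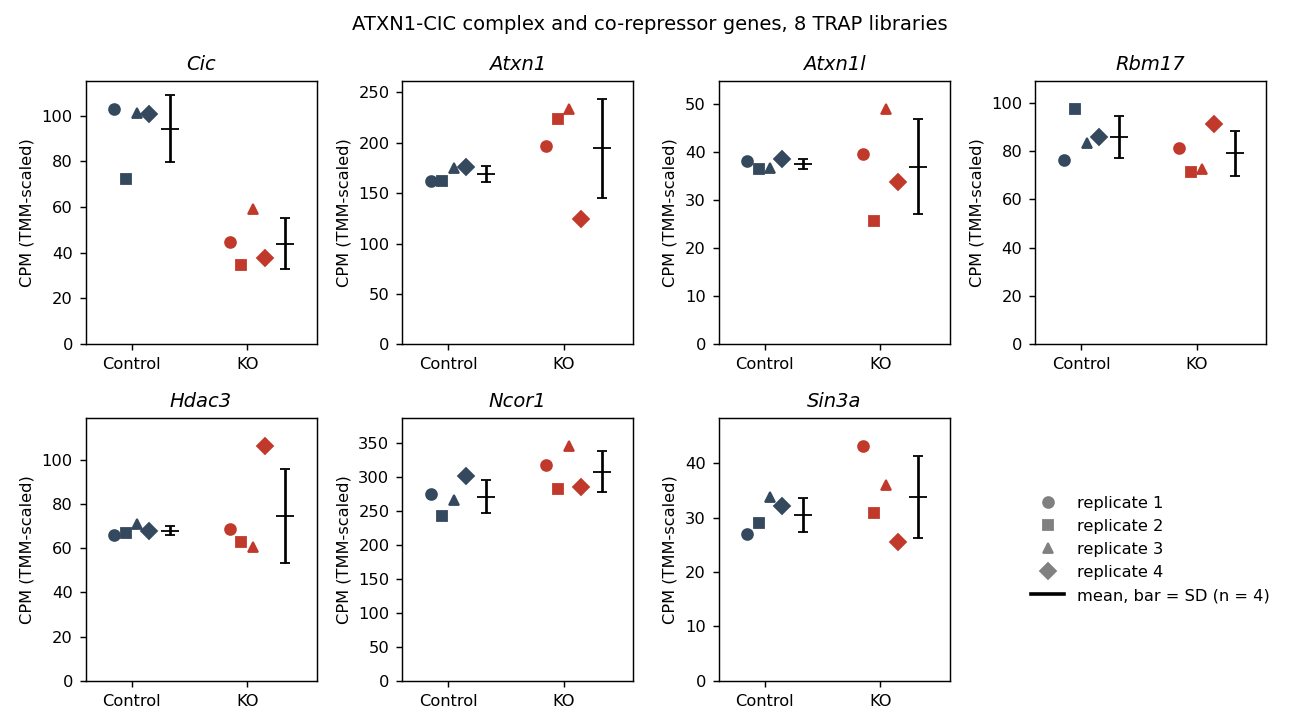
CPM of each member in each library (vertical axes start at 0; points are libraries, 1 symbol per replicate number; horizontal marks and bars are the mean and SD, n = 4). The 4 Cic values in KO lie between 34.5 and 59.3 CPM, below the Control range of 72.4 to 103 CPM, while the groups overlap in the other 6 panels.

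The other 6 members were not called. By edgeR 0 of 6 passed, with adjusted p from 0.633 to 0.982, and 0 of 6 passed at an unadjusted p of 0.05 (10.6% of all tested genes did), with DESeq2 or with limma-voom. The KO and Control ranges overlapped for all 6, where 5.93% of tested genes had no overlap, and 4 of 6 log2 fold changes were positive. A p above the threshold does not show equal levels, so intervals are given below. They came from limma-voom, which takes the same spread for both groups and borrows it in part from all genes. For Atxn1, Atxn1l and Hdac3, whose spread differed most between groups, changes outside the printed intervals are not excluded.

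Atxn1 measured 196.5, 224, 233 and 125 CPM in KO replicates 1 to 4 and 162.5, 162, 175 and 176 CPM in Control replicates 1 to 4. KO replicates 1 to 3 were above every Control library and KO replicate 4 below every one. The means were 195 ± 49.1 and 169 ± 7.81 CPM (log2 fold change 0.20, SE of 0.21, adjusted p = 0.709 by edgeR, exact permutation p = 0.343), with a 95% interval of 0.898 to 1.40 for KO over Control. Without KO replicate 4 the log2 fold change was 0.36 (edgeR adjusted p = 0.150), without KO replicate 2 it was 0.12 (0.868), and without KO replicate 3 it was 0.10 (0.873). Atxn1 (ENSMUSG00000046876.16) lies on chromosome 13 from 45549755 to 45965008 on the minus strand and shares 375 exonic bases with Gmpr on the other strand, and counting may not separate their reads there.

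Atxn1l measured 39.7, 25.6, 48.9 and 33.7 CPM in KO and 38.2, 36.5, 36.6 and 38.6 CPM in Control, replicates 1 to 4 in each. KO replicates 2 and 4 were below every Control library and KO replicates 1 and 3 above every one, so the means of 37.0 ± 9.82 and 37.5 ± 1.08 CPM nearly coincided (log2 fold change -0.02, SE of 0.20, adjusted p = 0.982 by edgeR, exact permutation p = 0.886, 95% interval 0.765 to 1.21). The sign turned without KO replicate 2 (0.11) and without KO replicate 4 (0.02). Atxn1l (ENSMUSG00000069895.4) lies on the minus strand of chromosome 8 from 109726451 to 109737739 and shares no exon with another gene.

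Rbm17 measured 81.3, 71.2, 72.5 and 91.3 CPM in KO and 76.2, 97.4, 83.4 and 86.0 CPM in Control, replicates 1 to 4 in each. KO replicates 2 and 3 were below every Control library, and the other KO libraries lay within the Control range. The means were 79.1 ± 9.32 and 85.8 ± 8.77 CPM (log2 fold change -0.12, SE of 0.11, adjusted p = 0.809 by edgeR, exact permutation p = 0.343, 95% interval 0.772 to 1.10). Of 10 other splicing genes tied to RBM17, edgeR, DESeq2 and limma-voom called 0, and 0 passed at an unadjusted p of 0.05. Their median log2 fold change was 0.15, and 9 of 10 were positive, but without KO replicate 1 the median was 0.02. RBM17 works in a complex with the products of U2surp (58.0 ± 14.4 CPM in KO and 51.8 ± 4.91 in Control) and Cherp (33.7 ± 1.83 and 32.6 ± 1.54 CPM). The members of smallest p were Sf3b1 (0.23, edgeR adjusted p = 0.547), a core subunit of the spliceosome, and U2af2 (0.21, edgeR adjusted p = 0.669), which recognises the polypyrimidine tract. Rbm17 (ENSMUSG00000037197.11) lies on chromosome 2 from 11585437 to 11604153 on the minus strand.

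Hdac3 measured 68.6, 62.7, 60.8 and 106 CPM in KO and 66.1, 67.0, 70.8 and 68.0 CPM in Control, replicates 1 to 4 in each. KO replicate 4, at 156% of the Control mean, stood apart from the other KO libraries, which were at 89.4% to 101% of it. The means were 74.6 ± 21.4 and 68.0 ± 2.04 CPM (log2 fold change 0.13, SE of 0.19, adjusted p = 0.828 by edgeR, exact permutation p = 0.914, 95% interval 0.860 to 1.31). Without KO replicate 4 the sign turned (log2 fold change -0.09, edgeR adjusted p = 0.767). Hdac3 (ENSMUSG00000024454.16) lies on chromosome 18 from 37935844 to 37955016 on the minus strand.

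Ncor1 measured 318, 282, 345 and 284 CPM in KO and 275, 242, 265 and 300.5 CPM in Control, replicates 1 to 4 in each. KO replicates 1 and 3 were above every Control library and the other KO libraries within the Control range. The means were 307 ± 30.0 and 271 ± 24.2 CPM, and Ncor1 had the smallest edgeR p of the 6 (log2 fold change 0.18, SE of 0.09, adjusted p = 0.633 by edgeR, exact permutation p = 0.114, 95% interval 0.962 to 1.34). It was positive in all 16 alternatives, from 0.12 to 0.24, and passed in none. Ncor1 (ENSMUSG00000018501.17) lies on chromosome 11 from 62316426 to 62458541 on the minus strand and shares 83 exonic bases with Ttc19 and Pigl on the opposite strand.

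The other subunits of the NCoR-HDAC3 complex were not called either. Of the complex's 6 genes, edgeR, DESeq2 and limma-voom called 0, 0 passed at an unadjusted p of 0.05, 5 were positive and the median log2 fold change was 0.12 (0.05 without KO replicate 1). The WD-repeat adaptors Tbl1x and Tbl1xr1 had log2 fold changes of 0.08 and -0.06, and Gps2, a further core subunit, one of 0.11.

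Sin3a measured 43.2, 30.9, 35.9 and 25.5 CPM in KO and 26.9, 28.9, 33.9 and 32.2 CPM in Control, replicates 1 to 4 in each, from 827 to 2094 counts. KO replicates 1 and 3 were above every Control library, and KO replicate 4 was below every one. The means were 33.9 ± 7.52 and 30.5 ± 3.12 CPM (log2 fold change 0.15, SE of 0.18, adjusted p = 0.795 by edgeR, exact permutation p = 0.457, 95% interval 0.891 to 1.39). Without KO replicate 1 the log2 fold change was 0.0043, and with the glial and vascular covariate 0.0033. Sin3a (ENSMUSG00000042557.14) spans 57072040 to 57128366 of chromosome 9 (plus strand) and shares 213 exonic bases with the non-coding genes 2700012I20Rik and Man2c1os on the opposite strand.

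In the SIN3 complex, edgeR and limma-voom called 0 of 18 genes, and 3 passed at an unadjusted p of 0.05 (10.6% of all tested genes did). DESeq2 called 1, Sap130, where it called 180 of 15578 genes over all. The median log2 fold change was -0.03, with 8 positive and 10 negative, and it was 0.02 without KO replicate 3 and -0.09 without KO replicate 1. Sap130, a subunit that binds SIN3, measured 73.9, 70.6, 79.1 and 67.1 CPM in KO and 54.1, 47.1, 49.0 and 56.5 CPM in Control, replicates 1 to 4 in each. All KO libraries were above all Control libraries, as for 3.01% of tested genes. Its log2 fold change was 0.49 (SE of 0.08, adjusted p = 0.0875 by edgeR, DESeq2 adjusted p = 0.00875, with a range of 0.00875 to 0.304 over 16 alternatives). Suds3, which encodes a further SIN3 subunit, had 54.9 ± 4.27 and 66.9 ± 6.23 CPM (-0.29, edgeR adjusted p = 0.378). The deacetylase genes of this complex had log2 fold changes of -0.04 (Hdac1) and -0.02 (Hdac2), and the paralog scaffold Sin3b had 0.02. Of all 11 zinc-dependent deacetylase genes, 0 were called by edgeR, DESeq2 or limma-voom, 0 passed at an unadjusted p of 0.05 and the median was -0.04, with Hdac10 (0.32) and Hdac6 (0.17) at the smallest p.

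**Figure D3:**
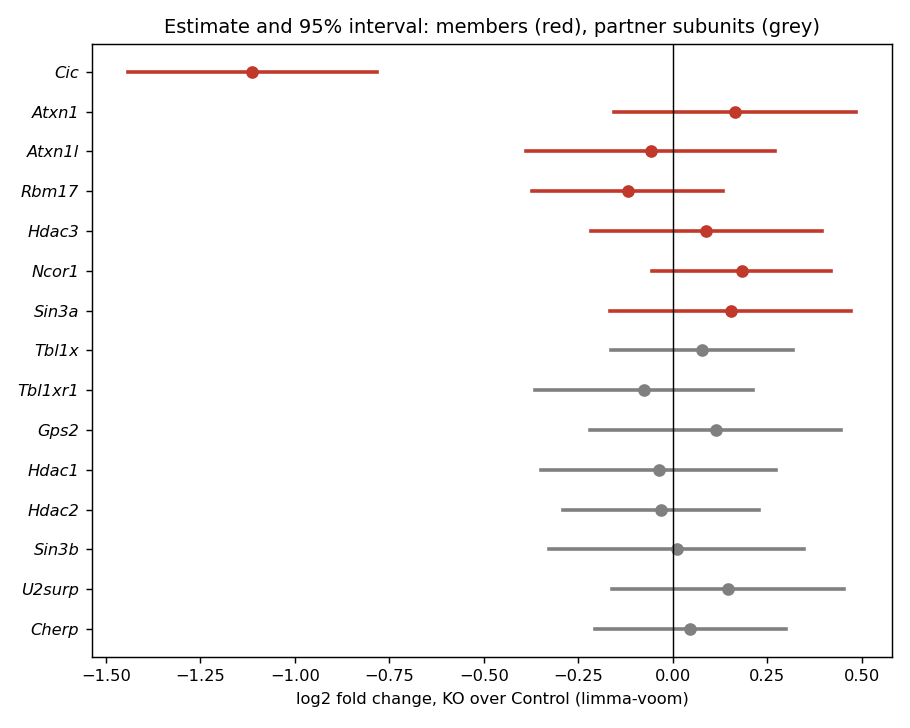
Log2 fold change of KO over Control from limma-voom (horizontal axis) with its 95% interval for the 7 members (red) and 8 partner genes (grey), over 8 libraries. The Cic interval runs from -1.44 to -0.78, and the other 14 intervals include 0.

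Counts of paralogs and partners were also set against each other within a library, since such ratios do not depend on the scaling between libraries. The ratio of Cic to the sum of Atxn1 and Atxn1l was 0.190, 0.138, 0.210 and 0.237 in KO and 0.512, 0.364, 0.478 and 0.468 in Control, replicates 1 to 4 in each. The groups did not overlap, and the KO mean was 42.5% of the Control mean (0.194 ± 0.0416 against 0.456 ± 0.0636, n = 4, exact permutation p = 0.0286, the smallest that 4 against 4 allows, and 0.114 after Benjamini-Hochberg adjustment over the 4 ratios computed). Cic alone was at 46.7% of its Control mean and neither ataxin gene was called, so this ratio largely restates the drop of Cic. KO replicate 3, which had the most Cic by CPM, lay within the range of the other KO libraries by this ratio, and KO replicate 4 was the highest. The ratio of Atxn1l to Atxn1 was 0.202, 0.114, 0.210 and 0.270 in KO and 0.235, 0.225, 0.209 and 0.219 in Control, so that KO replicate 2 had the lowest and KO replicate 4 the highest share of the paralog (0.199 ± 0.0641 against 0.222 ± 0.0110, exact permutation p = 0.629). The ratio of Sin3b to Sin3a was 0.807 ± 0.284 against 0.842 ± 0.113 (exact permutation p = 0.83). The groups overlapped for both paralog ratios, each with an adjusted p of 0.943.

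**Figure D4:**
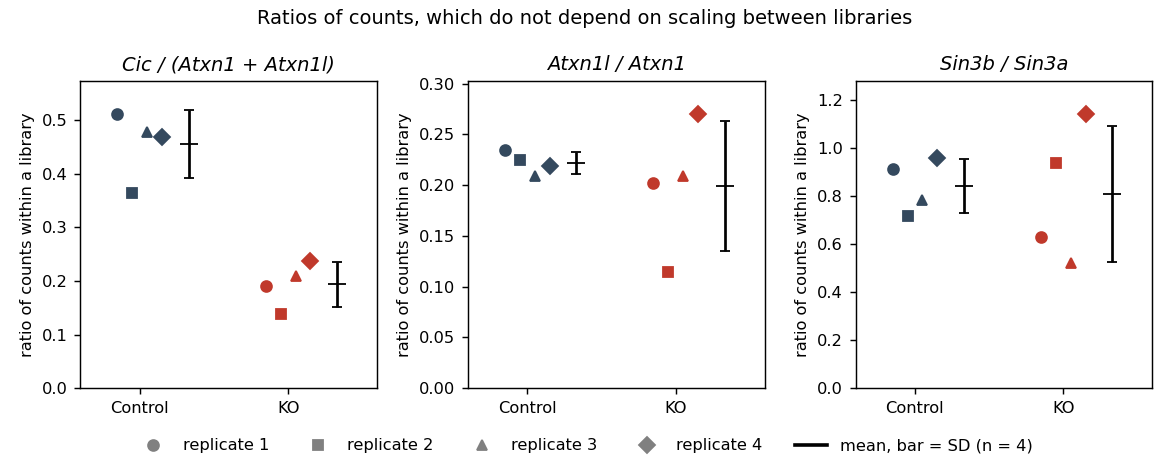
Ratios of raw counts within each library (vertical axes start at 0; points are libraries, marks and bars are the mean and SD, n = 4). The ratio of Cic to both ataxin genes is 0.138 to 0.237 in KO and 0.364 to 0.512 in Control, and both paralog ratios overlap between groups.

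The members differed in how far their spread within KO exceeded that within Control. For Atxn1l the log2 CPM values had an SD of 0.39 in KO against 0.04 in Control, a ratio of 9.48 that 0.635% of tested genes exceeded. The Control value was close to the 0.04 that counting error alone gives at its depth. For Hdac3 the SDs were 0.37 and 0.04 (ratio 8.72, exceeded by 0.725% of genes), and for Atxn1 0.41 and 0.07 (ratio 6.22, exceeded by 2.05%). The other members were nearer to the median ratio of 1.45, with Sin3a at 2.17, Cic at 1.41, Rbm17 at 1.14 and Ncor1 at 1.08. In KO alone, Cic (SD of 0.34) and Sin3a (0.32) varied nearly as much as Hdac3, but their Control SDs were larger (0.24 and 0.15). For Rbm17 the SDs were 0.17 in KO and 0.15 in Control, and for Ncor1 0.14 and 0.13. The high ratios thus also reflect close Control values. Without KO replicate 4 the ratio dropped to 1.94 for Atxn1, 2.11 for Hdac3 and 0.711 for Rbm17, while for Atxn1l it was 11.5 (6.48 to 11.5 over the 4 KO libraries left out). Without KO replicate 3 the ratio for Cic was 0.788. The median over all genes moved to between 1.26 and 1.42 when a KO library was left out. KO replicate 4 is also the library with the fewest gene counts (33223878), and the part of depth in these spreads was not tested.

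**Figure D5:**
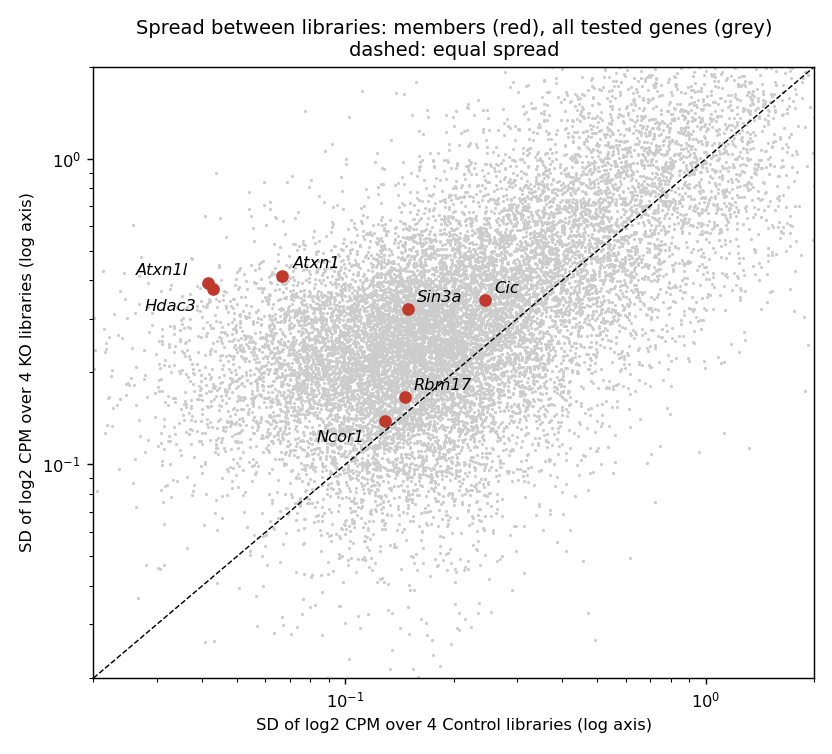
SD of log2 CPM over the 4 KO libraries against that over the 4 Control libraries (both axes logarithmic) for the 7 members (red) and 15438 tested genes (grey, 131 of them outside the axes), with a dashed line at equal spread. Atxn1l, Hdac3 and Atxn1 lie far above the line, with ratios of 9.48, 8.72 and 6.22, and Ncor1 and Rbm17 lie near it.

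Among genes with a mean of at least 10 CPM, those whose log2 CPM moved most like a member across the 8 libraries, with group means removed, were found from 9374 genes. For Cic they were Pde4b (Pearson r = 0.98, Spearman rho = 0.98), which encodes a cyclic AMP phosphodiesterase, Rab6a (0.97 and 0.79), a Golgi transport GTPase, and Aasdhppt (0.96 and 0.95). For Atxn1 they were Arhgef7 (0.99 and 0.93), Nr2c2 (0.99 and 0.93) and Zfp248 (0.99 and 0.90), and for Atxn1l Sobp (0.98 and 0.88), Slc25a14 (0.97 and 0.74) and Nsg2 (0.96 and 0.86). None of these 9 genes was called between KO and Control (edgeR adjusted p = 0.440 for the lowest, Pde4b). The points share the same 8 libraries and their depth, the genes were picked as the closest of many, and the values carry no test. Atxn1 varied mostly through KO replicate 4 (125 CPM, against 196.5 to 233 CPM in the other KO libraries). Its r values therefore lean on that library, and they were not computed without it.

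Genes around ataxin-1 were called in no case by edgeR, DESeq2 or limma-voom. Of 17 tested binding partners and regulators of ataxin-1, 3 passed at an unadjusted p of 0.05, 12 were positive and the median log2 fold change was 0.07 (0.04 without KO replicate 1 or KO replicate 3). Ywhag, which encodes a 14-3-3 protein of the family that binds phosphorylated ataxin-1, had 1724 ± 133 CPM in KO and 1410 ± 101 in Control with no overlap (0.29, edgeR adjusted p = 0.346). The nuclear receptor gene Rora was at -0.36 (edgeR adjusted p = 0.419). Of 11 other ataxin and polyglutamine disease genes, 7 passed at an unadjusted p of 0.05, against 10.6% of all tested genes. Of the 11, 7 were positive and 4 negative, and the median log2 fold change was 0.26. Atn1, which encodes atrophin-1, measured 356, 395, 499.6 and 364 CPM in KO and 285, 328, 313 and 289 CPM in Control, replicates 1 to 4 in each, with no overlap (0.41, SE of 0.12, adjusted p = 0.216 by edgeR). Atxn2l was at 0.31 (edgeR adjusted p = 0.346). Atxn2 (0.29) and Atxn10 (0.26), named after their values were seen, also had no overlap, which makes 3 of 11 against 5.93% of all tested genes. Atxn7l3, also named after its values were seen, was on the negative side (-0.28, edgeR adjusted p = 0.410). Of 8 kinases and ubiquitin ligases that act on Capicua, 0 passed at an unadjusted p of 0.05, and Rps6ka1, which encodes a ribosomal S6 kinase, was at 0.31 (edgeR adjusted p = 0.576).

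Promoter windows were searched for the Capicua octamers TGAATGAA, TGAATGGA, TCAATGAA and TCAATGGA on both strands, to show which members carry one. The RefSeq table (GRCm38.p6, 250 bases before to 50 after a gene start) held 8 windows for 5 of the 7 members, and Atxn1 and Hdac3 had none. Of all 32851 windows 3.84% held an octamer. Among the members 1 of 8 windows did, that at the upstream start of Sin3a, while the window at its downstream start held none. The octamer began 102 bases before the upstream start. The stretch around it is shown beside those of Maff and Spred3, a pair of known targets called higher in KO. Octamers are in capitals, all 3 on the strand of their gene. The stretches lie at chr9:57071927-57071956 (plus strand), chr15:79347507-79347536 (plus strand) and chr7:29168639-29168668 (minus strand).
Sin3a: gcaaggggcgaTCAATGAAggggaaggggc
Maff: ctgggtttttaTGAATGAAaggaatcctgt
Spred3: cttgatttttgTGAATGAAatgctccttgt
Maff had a log2 fold change of 1.91 (edgeR adjusted p = 0.00484) and Spred3 of 1.27 (edgeR adjusted p = 0.000127), against 0.15 for Sin3a, which was not called. For the other known targets called higher (Etv4, Etv5, Spry4 and Dusp4) no octamer was found, either for want of a window or because the window held none. Spred3 lies 3864670 bases from Cic, and at that distance variants that travel with the floxed allele and the loss of Cic cannot be told apart. The windows of Cic itself, at its annotated starts, and of Atxn1l, Rbm17 and Ncor1 held none of these letters. A match is a description of the letters and not a measured binding site.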

How the data were processed

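Each library has a deposited table of raw counts by gene symbol. The submitters' processing notes name TopHat2 2.0.9, HTSeq, DESeq2 and the mm10 build, and the sources used here do not state the strand setting, filters or annotation. Per the labels' protocols, cDNA was amplified from 10 ng of RNA without molecular identifiers, so counts include amplified copies. The 92 spike-in rows and 5 counter rows were left out. The counter rows held 152037320 to 307437073 records per library.

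The gene tests used edgeR 4.0.16 under R 4.3.3 (filterByExpr with minimum count 10 and minimum total 15, TMM, robust quasi-likelihood fit over 8 libraries), with Benjamini-Hochberg adjustment over all 15438 genes and a threshold of 0.05. SE is that of the difference of group means of log2 CPM (prior count 2). Intervals came from limma-voom (limma 3.58.1). For single values, exact permutation tests (two-sided) were used (scipy 1.17.1). The script was tested on simulated counts. Alternatives were other scalings, no filter, DESeq2 1.42.0, limma-voom, a replicate block, a glial and vascular covariate and leaving out each library.

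The members and gene lists were chosen with earlier results of these data known. Named were the members, fixed partner subunits, called genes and the 2 of smallest p in each list described, and the 3 genes most like Cic, Atxn1 and Atxn1l. The spread ratios without single libraries and the octamer search were chosen after seeing the data. No pair of 28 libraries agreed within sampling noise (chi-square per degree of freedom of 25.9 or more). Some partner genes and a ratio are not reported here, though list counts and the adjustment over ratios include them.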

Additional observations from a re-analysis of the deposited data

Results flagged for a closer look

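Among 36 groups of 4 values, 2 held a library far from the rest of its group, and chance marks about 1 in 20 such groups. Cic in Control replicate 2 was 72.4 CPM, against 100.5 to 103 CPM in the other Control libraries. Without it the Cic log2 fold change was -1.21 (edgeR adjusted p = 0.00311, with a range of 1.06e-07 to 0.0146 over the 16 alternatives). U2surp in Control replicate 3 was 59.2 CPM, against 48.9 to 49.9 CPM in the other Control libraries.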

How the results depend on the processing

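Cic was called lower in all 16 alternatives, with log2 fold changes of -1.27 to -1.01, and the other 6 members were called in none of them. Of all genes, edgeR called 40, against 26 with total counts only, 180 with DESeq2, 65 with the replicate block and 22 with the glial and vascular covariate. Leaving out single libraries gave 14 to 53 calls, with 26 when KO replicate 2 was left out and 19, 17, 26 and 14 when Control replicates 1, 2, 3 and 4 were left out in turn. The largest of these counts, 53, came without KO replicate 4. Fewer samples enter the leave-out fits, and the cause of these shifts and of the others was not tested. Of the 40 genes, 39 were also called with the replicate block. Same-numbered libraries correlated at -0.05 to 0.10 in their deviations and 2 of 8 libraries correlated best with their own number, so the block stands as an alternative. With the pairing the difference in the ratio of Cic to both ataxin genes was -0.262 (exact sign-flip permutation p = 0.125, the smallest that 4 pairs allow). Without single libraries it was -0.292 to -0.243 (exact permutation p = 0.0571, the smallest that 3 against 4 allow). Both paralog ratios kept their side of the threshold in all 10 alternatives each. Counts per member were 827 or more in every library. In KO, counting error alone gives an SD of log2 CPM from 0.013 for Ncor1 to 0.040 for Sin3a. The observed KO SDs of these members were 0.14 and 0.32. The part of counting error in the intervals was not tested.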

Other observations

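Of the genes called higher in KO, 20 had a promoter window in the RefSeq table, and 5 of these held a Capicua octamer, against 2.95% of 11659 tested genes with a window and 0 of 10 genes called lower. The 5 were Maff, Spred3, Hcrtr1, Hsd11b1 and Fndc3c1, named after their values were seen. No test of this share was made. Hcrtr1, which encodes an orexin receptor, held TGAATGGA in 2 windows, at chr4:130139302-130139331 and chr4:130138624-130138653 (GRCm38.p6, minus strand), printed with the octamer in capitals.
Hcrtr1, first window: cagtggacgcgTGAATGGAggtggatggaa
Hcrtr1, second window: ggccggatttaTGAATGGAgagcggcctgc
Its log2 fold change was 1.97 (SE 0.20, edgeR adjusted p = 8.54e-05), while Hsd11b1, the enzyme that regenerates active glucocorticoid, was at 1.21 (SE 0.30, edgeR adjusted p = 0.0253).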
